A study of Mus musculus with 16 samples.

Results

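Heart and brown adipose tissue, both rich in mitochondria, were compared through their open chromatin. ATAC-seq, in which a transposase cuts and tags accessible DNA, gave 1 list of accessible regions per library, and the 4 lists of these tissues were taken from the 16 of the series, which covers 8 tissues. The mice were C57BL/6 males acquired at 12 weeks of age and were either fed or deprived of food for 24 h (fasting), and the heart and brown adipose libraries of a state came from the same mice. Tissue of 3 mice was pooled for each library, so each tissue had 1 fed and 1 fasting library and no replicate within a state, and the 2 states served as the 2 libraries of a tissue.

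A region belonged to the set of a library when its deposited q was 0.01 or lower. A heart-specific region lay in the sets of both heart libraries and touched no deposited peak of either brown adipose library, and brown-specific regions were defined with the tissues exchanged. Of 277157 merged regions in the sets of the 4 libraries, 16187 were heart-specific, 32145 were brown-specific and 41257 lay in all 4 sets and are called shared. The sets of the whole series merged into 760105 regions.

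The heart contracts without rest on ATP made largely from fatty acids, and its myocytes are packed with mitochondria and sarcomeres, the repeating units of actin and myosin filaments. Brown adipocytes also burn fatty acids in abundant mitochondria, but uncoupling protein UCP1 lets protons return through the inner membrane without ATP synthesis, so the energy appears as heat. Accessible DNA is found at most promoters and at enhancers, where transcription factors bind; MEF2, GATA, T-box and NKX factors act in the cardiac programme, and EBF2, PPARG and C/EBP factors in the adipocyte programme.

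A few of the tissue-specific regions are printed first, because the results below turn on where such regions lie and which motif letters they hold. Each stretch is 201 bases around the summit, on the plus strand of GRCm38, and capitals mark letters of a searched motif.
Strongest heart-specific region, chr19:42238552-42238752: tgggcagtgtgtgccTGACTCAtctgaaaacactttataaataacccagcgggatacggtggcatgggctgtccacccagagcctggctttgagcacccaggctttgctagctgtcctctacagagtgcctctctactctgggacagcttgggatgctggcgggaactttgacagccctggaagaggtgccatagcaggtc
Myh6 intron, chr14:54954047-54954247: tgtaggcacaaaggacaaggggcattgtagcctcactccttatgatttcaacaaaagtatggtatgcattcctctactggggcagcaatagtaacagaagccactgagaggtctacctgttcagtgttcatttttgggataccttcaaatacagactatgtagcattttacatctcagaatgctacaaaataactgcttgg
Heart-specific region with the MEF2 letters, chr5:52509475-52509675: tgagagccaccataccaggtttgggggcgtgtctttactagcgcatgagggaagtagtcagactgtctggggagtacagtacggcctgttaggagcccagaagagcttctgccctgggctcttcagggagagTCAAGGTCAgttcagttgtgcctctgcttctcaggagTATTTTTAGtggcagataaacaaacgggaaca
Heart-specific region with the GATA letters, chr14:121435806-121436006: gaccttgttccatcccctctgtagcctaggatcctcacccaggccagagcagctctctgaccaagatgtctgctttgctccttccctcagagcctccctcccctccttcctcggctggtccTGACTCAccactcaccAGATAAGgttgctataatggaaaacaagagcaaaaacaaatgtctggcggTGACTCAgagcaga
Strongest brown-specific region, Pcx intron, chr19:4536628-4536828: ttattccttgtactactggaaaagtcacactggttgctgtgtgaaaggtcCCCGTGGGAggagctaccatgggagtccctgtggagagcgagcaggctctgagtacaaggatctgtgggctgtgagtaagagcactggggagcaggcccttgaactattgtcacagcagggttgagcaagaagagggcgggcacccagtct
Upstream of Ucp1, chr8:83287867-83288067: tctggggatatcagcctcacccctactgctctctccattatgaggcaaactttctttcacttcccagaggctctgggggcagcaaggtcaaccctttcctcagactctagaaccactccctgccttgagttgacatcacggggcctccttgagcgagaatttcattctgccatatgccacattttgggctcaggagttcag
Brown-specific region with the PPAR letters, chr2:49590594-49590794: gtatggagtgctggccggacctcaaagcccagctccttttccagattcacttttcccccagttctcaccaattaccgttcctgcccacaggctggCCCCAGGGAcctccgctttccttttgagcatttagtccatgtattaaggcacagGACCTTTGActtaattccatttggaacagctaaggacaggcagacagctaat
Brown-specific region with the C/EBP letters, chr13:15929981-15930181: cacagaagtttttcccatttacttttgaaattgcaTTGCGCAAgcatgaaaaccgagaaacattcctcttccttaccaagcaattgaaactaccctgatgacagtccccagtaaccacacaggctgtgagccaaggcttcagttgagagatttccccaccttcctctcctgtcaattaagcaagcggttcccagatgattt

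The strongest heart-specific region was intergenic, 8922 bp from the nearest coding start, that of Golga7b. It held ranks of 98.5 (fed) and 97.1 (fasting) in the heart lists with folds of 11.4 and 7.93 over background, it was also open in muscle, and its capitals are the AP-1 letters. A rank is the percentile of a region's −log10 p within its own list, so that 100 is the strongest region of a library. The region within an intron of Myh6, the myosin heavy chain of adult mouse heart muscle, held ranks of 93.2 and 82.7, and no set of another tissue in the series covered it. The MEF2 region, 38054 bp from the start of Ccdc149, also holds the ESRR letters and was open in muscle and spleen, whereas the GATA region, 55895 bp from the start of Stk24, holds the AP-1 letters at a pair of positions and was open in all 6 other tissues.

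Both the MEF2 and the GATA region were among the 5 strongest of the class, beside a region in an exon of Slc6a17 (chr3:107483223-107483788) and one in an intron of Ears2 (chr7:122044992-122045654), which encodes a mitochondrial tRNA synthetase. The mean ranks of the 5 ran from 96.7 to 97.8.

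The strongest brown-specific region lay in an intron of Pcx, which encodes pyruvate carboxylase of the mitochondrial matrix. Its ranks were 98.7 (fed) and 99.1 (fasting) in the brown adipose lists with folds of 19.1 and 18.3, and its capitals are the EBF letters. It was also open in liver, muscle, white adipose, lung and kidney. The region 2385 bp upstream of Ucp1, where the classical Ucp1 enhancer lies, held ranks of 84.7 and 89.5 and was also open in spleen. It contained none of the motif letters searched, and was chosen for printing after its values were seen. The PPAR region lay 28604 bp from the start of Kif5c, held folds of 20.3 and 13.2, contains the EBF letters too and was open in white adipose. The C/EBP region lay in an intron of B230303A05Rik, 81770 bp from the coding gene Inhba, with folds of 23.0 and 14.3. Liver, white adipose and lung were open there too. Among the 5 strongest regions of the class were also introns of Cdh26 (chr2:178448839-178449747), 2610528A11Rik (chr14:37112551-37113316) and Fam129a (chr1:151614501-151615252), and the mean ranks of the 5 ran from 98.1 to 98.9. The Cdh26 region was open in muscle, white adipose and spleen, that of 2610528A11Rik in white adipose and kidney, and that of Fam129a in all 6 other tissues. The strongest region assigned to Ucp1 lay 5706 bp upstream (chr8:83284282-83284833) with ranks of 89.7 and 91.2, and no set of another tissue covered it.

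The lists of the 4 libraries differed in depth and length. Fed and fasting heart held 206098 and 205981 regions with 132541 and 141888 in their sets, and fasting brown adipose held 189706 regions with 131688 in its set. The fed brown adipose list ended at 149835 regions, all of them in the set, with no −log10 q below 5.26, so that list held no weaker peaks by which a region could drop out of the heart-specific class. Background at the summits, recovered from the deposited fold and p, was 4.92 and 5.84 tags in fed and fasting heart and 12.8 and 6.76 in fed and fasting brown adipose, and the fed brown adipose library was therefore the deepest by this measure. The median widths of the set regions were 165 and 168 bp in heart and 258 and 200 bp in brown adipose.

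The marker genes matched the labels. The promoter rank of a gene was the largest rank of a peak whose summit lay within 3000 bp of one of its annotated starts, and 0 when there was none. A rank of 0 thus means no listed peak, and the fed brown adipose list held no peak with −log10 q below 5.26. Myh6 held promoter ranks of 91.3 (fed heart), 76.3 (fasting heart), 0 (fed brown adipose) and 25 (fasting brown adipose), and 8 heart-specific regions but no brown-specific region had its start as the nearest coding start within 100000 bp. Ucp1 held 0 in both heart libraries and 92.4 and 89.5 in fed and fasting brown adipose, with 11 brown-specific regions and no heart-specific region. Neither marker was limited to its tissue among the 8. The Myh6 promoter ranked 75.4 and 80.9 in fed and fasting kidney, and that of Ucp1 ranked 65.3 and 30.2 in fed and fasting spleen.

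**Figure D1:**
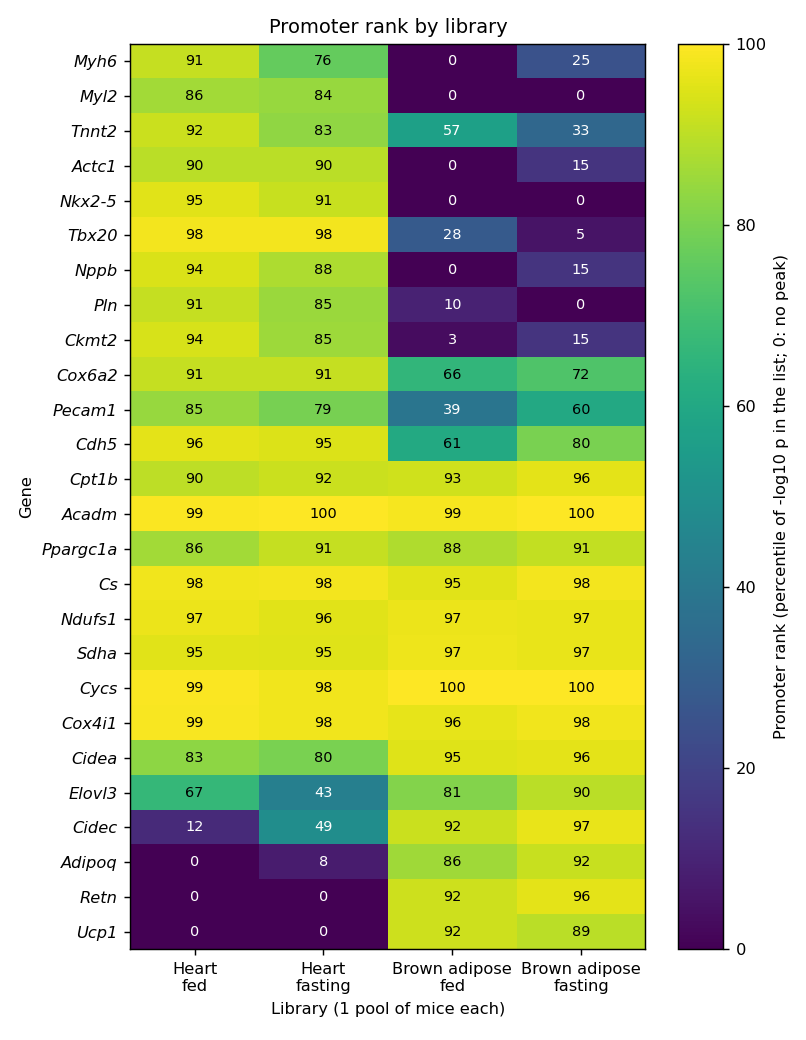
Promoter rank (percentile of −log10 p within the list, 0 where there is no peak), shown by colour and printed number, for named genes (rows) in the 4 libraries (columns). Nkx2-5 stands at 95.4 and 91.5 in heart and at 0 in both brown adipose libraries, Ucp1 shows the opposite order, and mitochondrial genes in the middle differ little.

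The question of how alike the accessible genomes of the tissues were was addressed with the Jaccard index, the base pairs that a pair of sets share over the base pairs that either covers. Heart and brown adipose gave 0.3326 ± 0.00769 (SD over the 4 pairs of libraries), from 0.325 to 0.341. Fed and fasting libraries gave 0.483 within heart and 0.551 within brown adipose, so every pair across the tissues was less alike than either pair within one. Among the 28 pairs of tissues this value was the seventh highest, with a mean of 0.295 over all pairs, and it did not stand apart (exact permutation test over the 28 choices of a pair, two-sided p = 0.571, smallest possible 0.0357). Brown with white adipose gave 0.436 and muscle with heart 0.370. A comparison of 2 libraries against 2 cannot reach a p below 0.3333 in an exact permutation test, so the differences that follow are described without a test.

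Regions specific to one tissue lay away from promoters more often than shared regions. Summits within 3000 bp of an annotated start made up 25.6% of the heart-specific regions (95% exact binomial interval 25 to 26.3), 24.6% of the brown-specific regions (24.2 to 25.1) and 51.1% of the shared regions. The intervals of both tissue-specific classes overlapped and cover counting error only. The median distance to a coding start was 16830 bp for heart-specific, 16806 bp for brown-specific and 5255 bp for shared regions, and the median widths were 249, 307 and 645 bp. Tissue-specific regions also ranked lower than the shared ones. Their median rank, averaged over the states, was 66.7 in heart and 62.7 in brown adipose against 81.9 in shared regions, and a mean rank above 90 was held by 645 heart-specific (3.99%), 1529 brown-specific (4.76%) and 12731 shared regions (30.9%).

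The counts depended on the requirement of both states, and they also changed in a setting that altered depth and threshold at once. Without the fed or the fasting heart library, heart-specific regions numbered 64976 or 56460, and without the fed or the fasting brown adipose library brown-specific regions numbered 56626 or 68877. Fed libraries alone gave 62529 heart-specific and 80251 brown-specific regions, whereas fasting libraries alone gave 75421 and 66373, and the order of the classes was thus reversed in the fasting comparison. With the summit tags of the 4 libraries thinned to the depth of the shallowest, 9064 heart-specific and 22157 brown-specific regions were found. There the sets were cut at p of 1e-05 in place of q, and the lists at p of 0.01. Depth and threshold therefore changed together.

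Muscle was the tissue in which heart-specific regions were most often open, and white adipose that of brown-specific regions. Of the heart-specific regions, 55.8% (55.0 to 56.6) were covered by the set of at least 1 muscle library, followed by lung with 43.1%, spleen with 34.3%, white adipose with 30.7%, kidney with 26.1% and liver with 25.6%. The last pair of shares had overlapping intervals. Of the brown-specific regions, 62.8% (62.3 to 63.4) were open in white adipose, followed by liver with 32.3%, kidney with 30.1%, muscle with 28.6%, lung with 27.3% and spleen with 19.97%. Without the fed or the fasting heart library, the share of heart-specific regions open in muscle was 29.8% or 32.2%.

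The remaining regions were in part particular to the tissue. No set of the other 6 tissues covered 2676 heart-specific regions (16.5%) and 5732 brown-specific regions (17.8%), against 66 of the 41257 shared regions. All 6 other tissues were open at 560 heart-specific (3.46%) and 967 brown-specific regions (3.01%), against 28586 shared regions (69.3%).

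**Figure D2:**
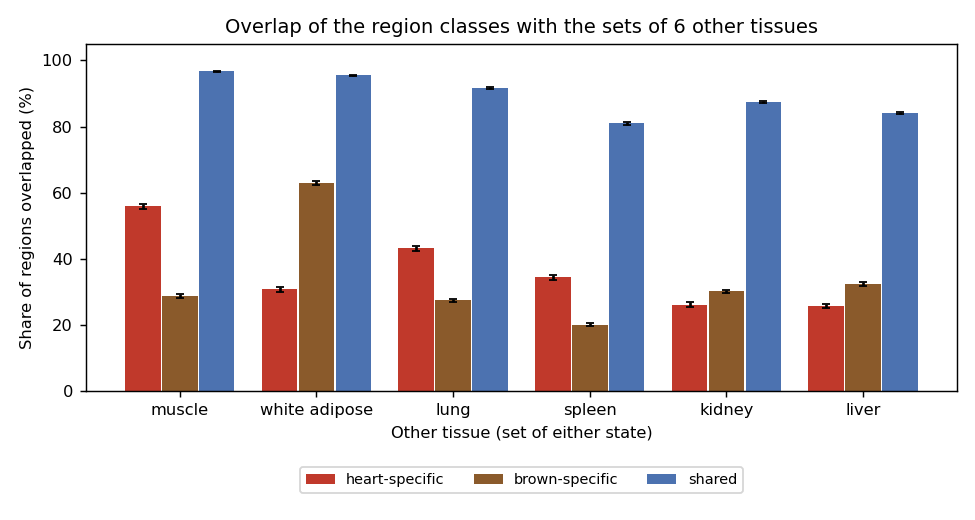
Share of heart-specific, brown-specific and shared regions (percent, vertical axis) covered by the set of at least 1 library of each of the 6 other tissues, with 95% exact binomial intervals. Muscle covers 55.8% of the heart-specific and white adipose 62.8% of the brown-specific regions, and every tissue covers at least 80.9% of the shared ones.

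Tissue-specific regions were assigned to the nearest coding start within 100000 bp, and the 10 genes with most of each class are given in turn. Ryr2, the calcium release channel of the heart's sarcoplasmic reticulum, had 57 heart-specific and 2 brown-specific regions, of which 49 heart-specific ones lay inside its 553.8 kb. None of the 57 was open in muscle, and 38 were open in no other tissue of the series. Ttn, which encodes titin, the spring protein of heart and skeletal muscle sarcomeres, had 39 heart-specific and no brown-specific regions. The pattern across tissues was the reverse of that of Ryr2, with 38 of the 39 open in muscle. Rbm20, a splicing factor that acts on the titin transcript, had 27 heart-specific regions, 23 of them open in muscle.

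The remaining heart genes at the top of this order were Cacna1c with 27 heart-specific and 6 brown-specific regions, Ablim1 with 26 and 18, Sorbs2 with 22 and 4, Corin with 21 and 0, Kalrn with 21 and 4, Cacnb2 with 19 and 6, and Foxp1 with 19 and 8. Cacna1c and Cacnb2 encode subunits of the L-type calcium channel, which admits the calcium that triggers contraction. Corin, the protease that activates the natriuretic peptide of the atria, had 15 of its 21 regions open in no other tissue. Kalrn had 19 of its 21 open in muscle. Counts were not scaled by gene length, and Cacna1c spans 609.2 kb.

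In brown adipose, Pde4d had 46 brown-specific and 11 heart-specific regions and spans 1503.5 kb. It encodes a phosphodiesterase that degrades cyclic AMP, the messenger through which noradrenaline drives thermogenesis. Pde3b, a phosphodiesterase that acts in insulin's suppression of lipolysis, had 29 brown-specific and no heart-specific regions in and around its 124.0 kb, and Prkar2b, a regulatory subunit of the kinase that cyclic AMP activates, had 33 and 0. White adipose was open at 21 of the regions of Prkar2b and 19 of those of Pde3b, and muscle at none of either, whereas 27 of the 46 near Pde4d were open in muscle and 24 in white adipose. Ntrk3 had 41 brown-specific regions and 1 heart-specific region, Slc4a4 41 and 1, Sipa1l1 36 and 2, Adam12 35 and 0, Sox6 34 and 5, Celf2 33 and 9, and Slc24a3 33 and 0. Slc4a4, a bicarbonate transporter, had 18 of its regions open in muscle. Of the regions near Adam12 and near Ntrk3, 15 each were open in no other tissue.

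More genes had a run of brown-specific regions. At least 10 were found near 408 genes in brown adipose and near 124 genes in heart, and at least 5 with none of the other class near 653 and 143 genes. Over all coding genes, 14103 heart-specific and 27310 brown-specific regions were assigned, so that heart-specific regions made up 34.1%, which is the background for the gene lists below.

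Promoters were compared over 17764 coding genes with a promoter peak in at least 1 of the 4 lists, of 21938 annotated, and 14547 of them (81.9%) had a peak in all 4. A promoter was called higher in heart when both heart ranks lay above both brown adipose ranks by 20 points or more in the mean. This held for 1817 promoters (10.2% of those tested), and 836 (4.71%) were higher in brown adipose by the same rule. The median difference, heart minus brown adipose, was 0.683 points, with an SD of 20.3 over genes. The median size of the difference between tissues was 2.66 points, against 1.38 between fed and fasting heart and 1.31 between fed and fasting brown adipose. In 25.9% of genes the difference had opposite signs in the fed and fasting comparisons. When regions were ranked by fold in place of p, the median of all genes shifted to 2.76 points, and 1502 of the heart calls and 737 of the brown adipose calls remained. Without the fed brown adipose library, whose list held no weak peaks, 1749 promoters were higher in heart and 1122 in brown adipose. A call then had fewer ranks to satisfy. Ranks are percentiles within lists of unlike length and lowest q, so equal ranks need not mean equal strength in different libraries. With ranks at equal depth, a setting added after seeing the data, 1957 promoters were higher in heart and 782 in brown adipose. The part of list length in the calls was not tested.

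Promoters with no peak in one tissue gave the extremes. Peaks in both heart libraries and neither brown adipose library were found at 527 promoters, and the reverse at 275. Klhl31, a protein of heart and skeletal muscle, ranked 97.8 and 95.6 in fed and fasting heart through a peak 24 bp from its start (chr9:77636401-77636917). Mylk3, the cardiac myosin light chain kinase, followed with 96.3 and 96.0, Smco1 with 95.8 and 95.5, Tecrl with 93.9 and 96.9, and Ky with 96.7 and 92.8, all without a peak in brown adipose. Tecrl acts in cardiac calcium handling, and the peak of Ky lay 2616 bp from its start.

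The 5 brown adipose extremes had no peak in either heart library. Galntl5 ranked 96.5 and 97.4 in fed and fasting brown adipose through a peak 92 bp from its start (chr5:25180954-25181753), Krt15, a keratin, 95.5 in both, St6galnac5 95.02 and 94.4, Aldh1a7 93.2 and 94.8, and Retn 92.3 and 95.7. Retn encodes resistin, a hormone of mouse adipocytes, and its peak lay 21 bp from the start (chr8:3655416-3655996). St6galnac5, a sialyltransferase, held its peak 1458 bp from the start.

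Sarcomere promoters ranked higher in heart for part of the list. Of 19 genes, 10 were called higher in heart and none in brown adipose, against 10.2% and 4.71% of all tested promoters, with a median difference of 35.4 points against 0.683 over all genes tested. Their mean rank was 90.1 and 86.1 in fed and fasting heart and 45.2 and 51.4 in fed and fasting brown adipose. Over both states, brown adipose held the lowest mean of the 8 tissues, 48.3, and muscle, with 72, the highest after the 88.1 of heart. Mybpc3 and Actn2 were not called and had slightly higher means in brown adipose, with differences of −1.21 and −2.68 points. Around their starts lay 126 heart-specific and 17 brown-specific regions, 88.1% heart-specific against the 34.1% of all genes. The specific regions and the promoter ranks come from the same lists, so they are not separate evidence.

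Single sarcomere genes differed in how low their promoters ranked in brown adipose. Myl2, the ventricular light chain, held 86.2 and 84.5 in fed and fasting heart and 0 in both brown adipose libraries, and Myoz2 held 87 and 87.3 against 0 and 0. Actc1, cardiac actin, held 89.6 and 89.7 in heart and 0 and 15.2 in brown adipose. Ttn held 89.3 and 88.7 against 74.4 and 85.4, beside 39 heart-specific and no brown-specific regions around it. Tnnt2, cardiac troponin T, held 92.0 and 83.3 against 57 and 33.3, but its difference of 42.5 points turned to −10.4 when regions were ranked by fold. Myl7, the atrial light chain, held 53.9 and 16.9 in heart and 0 in brown adipose.

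The regulators and hormones of the heart gave the largest median among the heart lists, 49.4 points, with 9 of 12 promoters called higher in heart and none in brown adipose, against 10.2% and 4.71% of all tested promoters. Nkx2-5, a homeobox factor of the cardiac lineage, held 95.4 and 91.5 in fed and fasting heart and 0 in both brown adipose libraries, and Hand2 held 88.2, 80.4, 0 and 15.2. Tbx20, a T-box factor, held 98.4 and 98.1 against 28.3 and 5.20. Each of these promoters was called higher in heart, and a call requires groups that do not overlap. Gata4 held 92.1 and 95.1 in heart and 78.7 and 53.8 in brown adipose, and Gata6 97.7 and 97.1 against 65.0 and 65.4, so both GATA promoters were open in brown adipose at lower ranks. The natriuretic peptide genes Nppa and Nppb held 65.7 and 47.0, and 94.4 and 87.6, in fed and fasting heart, with 0 for Nppa and 0 and 15.2 for Nppb in brown adipose. Near the 12 genes lay 84 heart-specific and 7 brown-specific regions (92.3% heart-specific), among them 15 each for Gata4 and Hand2 and none brown-specific for these.

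Calcium and conduction genes had some called promoters, and most of the tissue-specific regions around them were heart-specific. Such regions have no peak in the other tissue by definition, so their counts and the promoter ranks are unlike measures. Of 15 promoters, 5 were called higher in heart and none in brown adipose, against 10.2% and 4.71% of all tested promoters. The median difference was 7.60 points. Near these genes lay 185 heart-specific and 25 brown-specific regions (88.1% heart-specific against 34.1% for all genes). Ryr2 itself held promoter ranks of 91.0 and 91.2 in heart and 85.3 and 85.8 in brown adipose, beside its 57 heart-specific regions. Pln, phospholamban, which restrains the calcium pump, held 91.1 and 84.9 against 9.54 and 0, and Casq2, the calcium store protein, 96.1 and 92.7 against 19.3 and 5.20. Pln and Casq2 were called higher in heart, whereas the ranks of Ryr2 were only a few points apart and gave no call.

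Thermogenic genes had some promoters called higher in brown adipose, and most of the tissue-specific regions around them were brown-specific. These counts again hold only regions without a peak in the other tissue, and shared regions are left out. Of 17 promoters, 5 were called higher in brown adipose and none in heart, against 4.71% and 10.2% of all tested promoters. The median was −4.11 points against 0.683 over all genes. Nearby lay 131 brown-specific and 13 heart-specific regions (9.03% heart-specific against 34.1% for all genes). All 17 genes had a brown-specific region, as did 8981 of the 21911 coding gene names. Prdm16, a coregulator of brown fat identity, held 90.5 and 92.5 in heart and 89.4 and 92.4 in brown adipose with 28 brown-specific and 5 heart-specific regions near it. Ebf2, the brown fat EBF factor, held 96.6, 96.7, 95.4 and 98.3 in the same order, with 12 brown-specific regions and none heart-specific. At both promoters the groups overlapped.

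The 5 thermogenic promoters called higher in brown adipose were those of Ucp1, Elovl3, Adrb3, Zic1 and Bmp8b. Elovl3, which elongates fatty acids, held 66.7 and 43.2 in fed and fasting heart and 81.5 and 89.6 in fed and fasting brown adipose. Cidea, a lipid droplet protein, held 83.1 and 79.8 against 95 and 95.7, and Dio2, which activates thyroid hormone, 79.5 and 84.8 against 91.9 and 87.5, and neither reached the 20 points of a call. Adrb3, the adrenergic receptor of adipocytes, held 58.1 and 77.3 against 88.5 and 91.7, but its difference turned from −22.4 to 7.08 points when regions were ranked by fold. Bmp8b held 26.7 and 38.2 against 92.2 and 93.3, a difference of −60.3 points that turned to 22.2 with a promoter window of 1000 bp. Brown-specific regions were nearest to Dio2 in 9 cases, Cidea in 8, Adrb3 in 7 and Elovl3 in 4.

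Adipocyte genes followed. Of 18 promoters, 4 were higher in brown adipose and none in heart, against the same 4.71% and 10.2%, with a median of −2.46 points against 0.683 over all genes. Near these genes lay 104 brown-specific regions and 1 heart-specific region (0.952% heart-specific against 34.1% for all genes). Adipoq, which encodes adiponectin, held 0 and 7.64 in fed and fasting heart and 85.9 and 91.8 in fed and fasting brown adipose. Lep, leptin, held 26.7 and 0 against 95.1 and 91.6, and Cidec, a lipid droplet protein, 11.7 and 49.1 against 92.1 and 96.5. Pparg, the master regulator of adipocytes, was open at the promoter in both tissues, with 96.0, 95.2, 96.9 and 97.3, and had 23 brown-specific and no heart-specific regions. Cebpa held 98.4 and 99 in heart and 95.3 and 96.9 in brown adipose, with 13 brown-specific regions and 1 heart-specific region. By mean rank over both states, the 18 promoters stood at 93.6 for brown and 92.1 for white adipose. Elsewhere they stood between 71.1 (muscle) and 80.4 (spleen). The Adipoq promoter was not limited to adipose tissue. Its mean rank was 93.4 in liver and 90.8 in spleen, above the 88.8 of brown adipose. White adipose and lung held 87.4 and 76.8, against 19.5 for muscle and 0 for kidney.

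**Figure D3:**
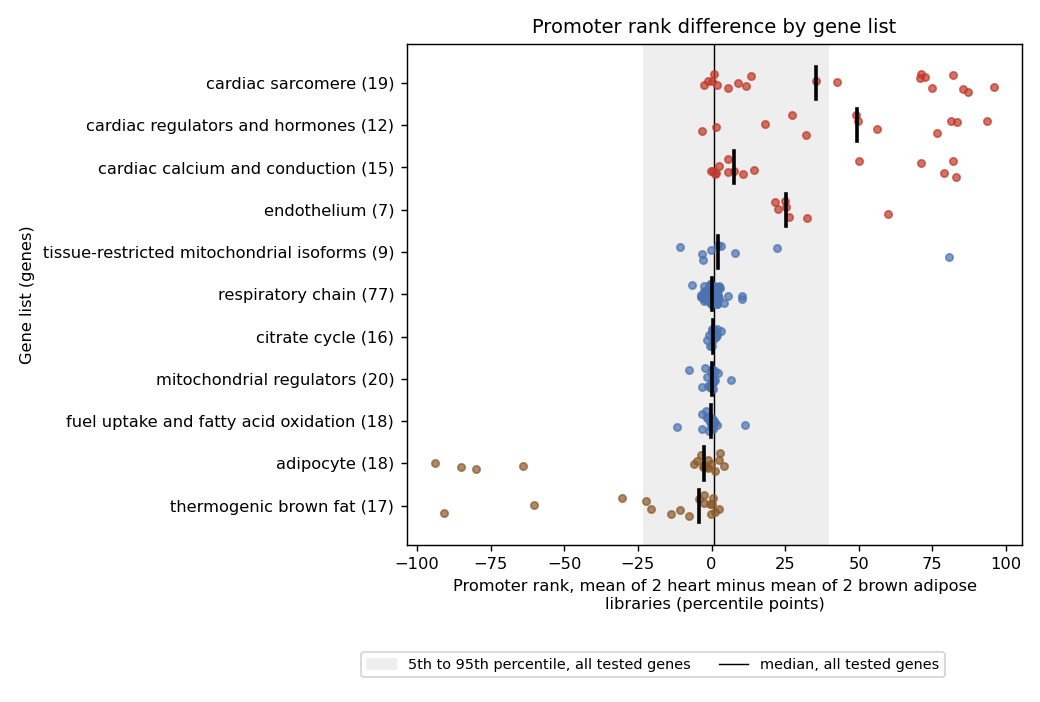
Difference in promoter rank, mean of both heart minus mean of both brown adipose libraries (percentile points, horizontal axis), 1 point per gene, with a thick bar at the median of each list and grey from the 5th to the 95th percentile of all tested genes. Cardiac regulators have a median of 49.4 points, respiratory chain genes lie between −6.60 and 10.4, and adipocyte genes have a median of −2.46.

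Promoters of nuclear genes of the respiratory chain ranked close together in both tissues. All 77 promoters had a peak in all 4 lists, none was called in either direction against a background of 10.2% and 4.71%, and the median difference was 0.248 points. Their mean ranks were 96.5 and 96.0 in fed and fasting heart and 95.3 and 96.7 in fed and fasting brown adipose, the lowest single rank was 74.5, and 66 of the 77 ranked above 90 in all 4 lists. Differences ran from −6.60 points at Ndufa2, a subunit of complex I, to 10.4 points at Atp5g1, a subunit of the ATP synthase ring. Ranks near the upper end of a list leave little room for differences, and the mean rank of these genes was between 94.0 and 96.6 in every tissue of the series.

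By complex, the medians were −0.107 points over 36 genes of complex I, −0.682 over 4 of complex II, 0.371 over 10 of complex III, 0.444 over 11 of complex IV and 0.370 over 16 of ATP synthase. The sign of the median over all 77 genes turned with the state, 0.843 in the fed and −0.325 in the fasting libraries. Cox7b of complex IV held 90.7 and 87.6 in fed and fasting heart and 74.5 and 83.1 in fed and fasting brown adipose, one of the widest gaps. Around the 77 genes lay 29 heart-specific and 80 brown-specific regions (26.6% heart-specific against 34.1% for all genes). They were spread over 21 and 38 of the 77, beside 5985 and 8981 of the 21911 coding gene names. Ndufb3 of complex I had 11 brown-specific and no heart-specific regions, and Atp5g3, another gene for the ATP synthase ring, had 6 and 0, while their promoter ranks were 91.8, 87.6, 90.9 and 95.6 and 95.1, 94.3, 97.2 and 99.

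The lists of the citrate cycle and of regulators of mitochondria also gave no call, against 10.2% and 4.71% of all tested promoters. Lists this short would hold few calls at those shares. The median was 0.526 points over 16 genes of the citrate cycle, whose lowest rank was 92.0, and 0.236 over 20 regulators of mitochondria. Ppargc1a, the coactivator that drives mitochondrial biogenesis, held 86.3 and 91.4 in fed and fasting heart and 88.0 and 91.0 in fed and fasting brown adipose, with 6 regions of each class nearby. Nrf1, which activates nuclear genes of the respiratory chain, held 99.3, 99.4, 99.5 and 98.9 and had 20 brown-specific regions against 1. Perm1, a regulator in muscle that acts with the ESRR factors, held 91.2, 86.0, 95 and 97.7, and 0 in both white adipose libraries. Citrate cycle genes had 51 brown-specific and 7 heart-specific regions near them (12.1% heart-specific against 34.1% for all genes). Of the brown-specific ones, 12 lay at Sucla2 and 10 at Suclg1, which encode subunits of succinyl-CoA synthetase.

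Fuel genes had no called promoter, and most of the tissue-specific regions around them were brown-specific. None of the 18 promoters for fuel uptake and fatty acid oxidation was called, with a median of −0.303 points. At the 10.2% and 4.71% of all tested promoters, a list this short would also hold few calls. Near these genes lay 87 brown-specific and 12 heart-specific regions (12.1% heart-specific against 34.1% overall). Acsl1, which activates fatty acids, held 99.4 and 98.8 in heart and 97.2 and 99.1 in brown adipose, and had 21 brown-specific and no heart-specific regions. Cpt1b, the muscle form of the enzyme that admits fatty acids to mitochondria, held 89.9, 92.0, 92.6 and 95.8 and was without a promoter peak in white adipose and lung. Pdk4, which restrains glucose oxidation, held 97.3, 97.1, 93.2 and 97.8, with 11 brown-specific regions and 1 heart-specific region. The widest gaps of the list lay at Ucp2 and Fabp3, neither of them called, with 91.1 and 86.8 against 74.2 and 80.9 for Ucp2 and 82.4 and 77.7 against 89.7 and 94.2 for Fabp3.

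Tissue forms of mitochondrial proteins held the only calls in the mitochondrial lists, and these were few. Of 9 such genes, 2 were called higher in heart and none in brown adipose, against 10.2% and 4.71% of all tested promoters. Cox6a2, the muscle form of a complex IV subunit, held 91.4 and 91.3 in heart against 65.8 and 72.4 in brown adipose, with 94.3 and 96.4 in fed and fasting muscle. Its promoter was not limited to muscle and heart. Fed and fasting ranks were 97.5 and 89.5 in spleen, 87.7 and 86.1 in lung, 83.6 and 83.3 in liver, 73.4 and 82.3 in kidney, and 74.6 and 68.2 in white adipose. Ckmt2, the mitochondrial creatine kinase of striated muscle, held 94.1 and 85.5 against 3.20 and 15.2, with 96.0 and 95 in muscle. The regions near Ckmt2 did not lean to heart, with 4 heart-specific and 5 brown-specific ones. Cox7a1, another muscle form, was open in both tissues with 91.0, 92.4, 93.2 and 96.2. Cox8b, also a muscle form, leaned to brown adipose without a call, with 70.7 and 86.3 in heart against 88.2 and 90.4. Slc25a4 and Slc25a5 encode forms of the ADP/ATP carrier, and the regions near them went apart, with 9 heart-specific and no brown-specific regions at Slc25a4 and 4 brown-specific and no heart-specific regions at Slc25a5.

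**Figure D4:**
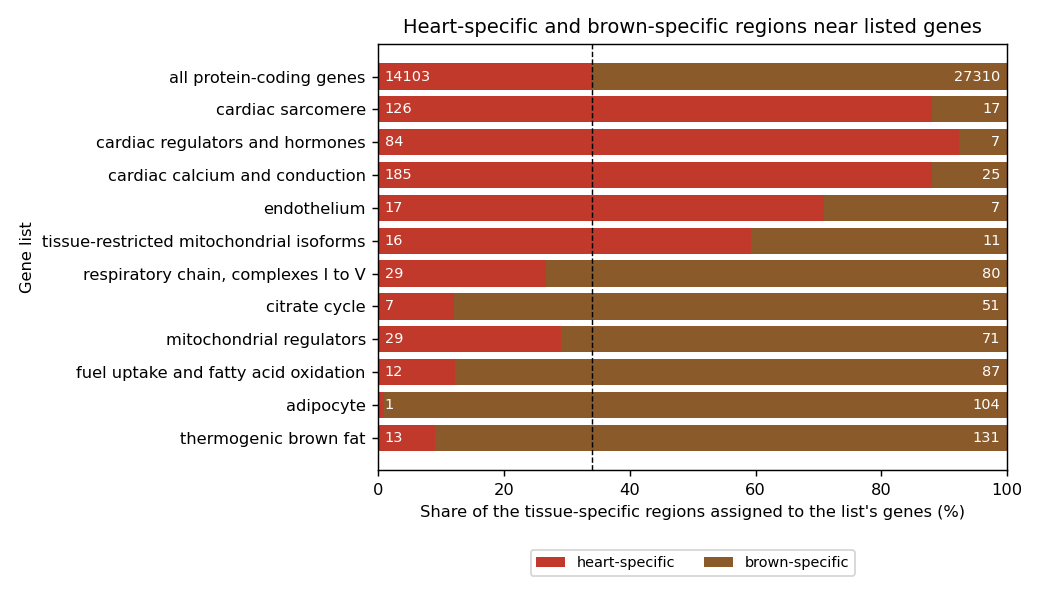
Heart-specific and brown-specific regions assigned to the genes of each list as shares of both (percent, horizontal axis), with the counts printed in the bars and a dashed line at the 34.1% heart-specific of all coding genes. Cardiac lists lie at 88.1% or above, the respiratory chain at 26.6% and adipocyte genes at 0.952%.

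Markers of other cells moved with the tissues. All 7 endothelial markers were called higher in heart and none in brown adipose, against 10.2% and 4.71% of all tested promoters. The mean ranks of the 7 were 92.0 and 92.5 in fed and fasting heart and 57.1 and 66.5 in fed and fasting brown adipose, and none was at 0 in any of the 4 lists. Cdh5, the cadherin of endothelial junctions, held 96.0 and 94.9 against 60.6 and 80.02. Of 6 macrophage markers, 3 were higher in heart and none in brown adipose, against the same 10.2% and 4.71%. The mean ranks of the 6 were 30.1 and 68.6 in heart and 11.8 and 17 in brown adipose. Csf1r, C1qa, Adgre1 and Lyz2 were at 0 in both brown adipose lists, and Adgre1 was also at 0 in fed heart. Cd68, a lysosomal protein of macrophages, went the other way, with 0 and 81.6 in fed and fasting heart and 70.6 and 86.9 in fed and fasting brown adipose, and was not called since the groups overlapped. Of 10 skeletal muscle markers, 4 were higher in heart and 1, Myh2, in brown adipose, again beside 10.2% and 4.71%. Myh2 held 66.5 and 69.1 in brown adipose against 0 in heart. Fewer cells of a type and less accessibility per cell cannot be told apart in whole tissue, and the part of these cells in the tissue-specific regions was not tested.

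The remaining marker lists held few calls, and with so few genes these counts cannot be set apart from the 10.2% and 4.71% of all tested promoters. Fibroblast markers gave 2 of 6 higher in heart, smooth muscle 1 of 4 and mesothelium 1 of 3 higher in heart, and none of the 4 erythroid markers was called.

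Motif letters differed between the classes of regions. They were counted on both strands within the 201 bp around each summit, and the share in all 277157 regions of the 4 sets is given as the background. A match describes letters and says nothing about binding. The MEF2 letters CTAAAAATA stood in 2.61% of heart-specific (2.37 to 2.86), 0.464% of brown-specific (0.392 to 0.544), 0.650% of shared and 0.670% of all regions. The GATA letters AGATAAG stood in 4.19% (3.89 to 4.51), 1.62% (1.49 to 1.77), 1.58% and 2.27%, in the same order. Both were thus more common in heart-specific regions than in any of the other classes. Letters of other heart factors differed less, with 0.859% and 0.588% for the T-box letters AGGTGTGA (0.832% in all regions) and 3.12% and 3.23%, with overlapping intervals, for the NKX2-5 letters TCAAGTG (2.83% in all regions). The SRF letters CCATATTAG stood in 23 heart-specific and 15 brown-specific regions (0.142% and 0.0467%, 0.0628% in all regions). The TEAD letters CATTCCA stood in 4.63% of heart-specific, 4.01% of brown-specific and 3.60% of all regions, and the AP-1 letters TGANTCA in 9.81%, 7.43% and 7.11%.

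Letters of adipocyte factors were more common in brown-specific than in heart-specific regions. The EBF letters CCCNNGGGA stood in 8.73% of brown-specific (8.43 to 9.05), 3.49% of heart-specific (3.21 to 3.78), 6.16% of shared and 5.50% of all regions. The NFI letters CTTGGCA stood in 10.95% of brown-specific, 6.30% of heart-specific, 6.18% of shared and 6.63% of all regions. The PPAR letters TCAAAGGTC stood in 0.548% of brown-specific (0.470 to 0.634), 0.167% of heart-specific (0.110 to 0.243), 0.191% of shared and 0.253% of all regions. The palindrome TTGCGCAA of C/EBP factors stood in 66 brown-specific regions and 1 heart-specific region (0.205% and 0.00618%, 0.0848% in all regions). Its share in shared regions was 0.177% (0.139 to 0.222), which overlapped the interval of brown-specific regions (0.159 to 0.261).

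The NRF1, ETS and CTCF letters were more common in shared than in tissue-specific regions. The NRF1 letters GCGCATGCG stood in 0.960% of shared, 0.0680% of heart-specific and 0.0560% of brown-specific regions (0.200% in all regions), and the ETS letters ACTTCCGG in 2.20%, 0.352% and 0.165% (0.550%). The CTCF letters AGGGGGCGC stood in 2.13%, 0.148% and 0.240% in the same order (0.538%). The ESRR letters TCAAGGTCA, bound by nuclear receptors of oxidative metabolism, stood in 0.649% of heart-specific and 0.828% of brown-specific regions, with overlapping intervals, 0.410% of shared and 0.669% of all regions. Within the brown-specific class they stood in 1.52% (1.31 to 1.76) of the regions not open in white adipose and in 0.416% (0.332 to 0.515) of those that were open there. Base composition moved with these shares. The mean GC content of the windows was 51.2% in heart-specific, 48.2% in brown-specific and 56.9% in shared regions, and the mean number of CpG sites was 3.24, 2.56 and 8.45. The part of composition in the motif shares was not tested.

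**Figure D5:**
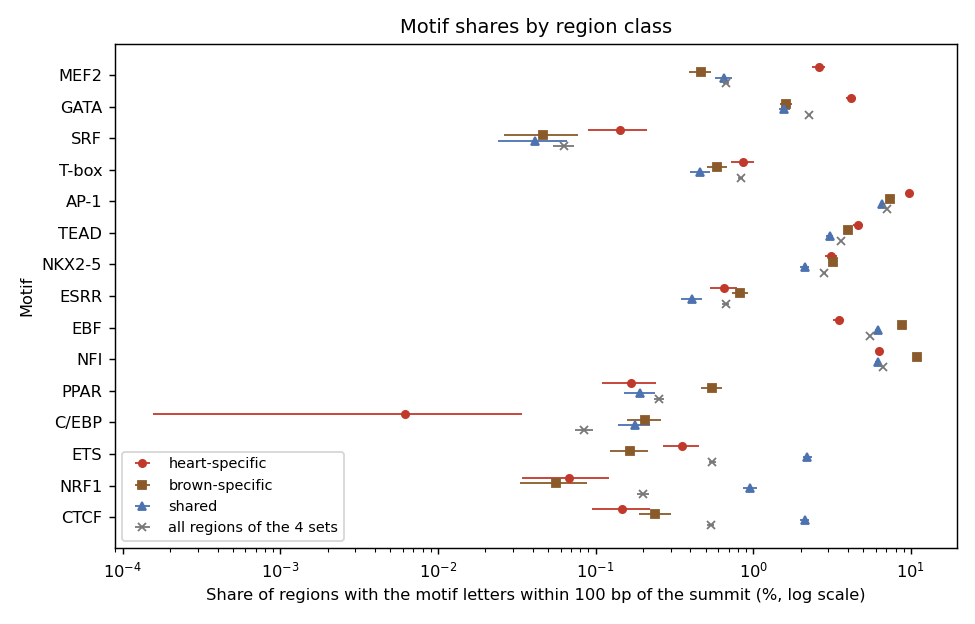
Share of heart-specific, brown-specific, shared and all regions (percent, logarithmic axis) whose 201 bp around the summit hold the letters of each motif on either strand, with 95% exact binomial intervals. MEF2 letters stand in 2.61% of heart-specific and 0.464% of brown-specific regions, and EBF letters in 3.49% and 8.73%.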

How the data were processed

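ATAC-seq peaks of heart and brown adipose tissue were analysed from the lists of 16 libraries, 1 per tissue and state, each a pool of 3 mice. Per the labels and the study's methods, the authors trimmed the reads, aligned them with Bowtie2 to GRCm38, removed unmapped, duplicate and mitochondrial reads, and called peaks per library with MACS2. The deposited lists hold the fold enrichment at the summit, the −log10 p and −log10 q, and the summit offset. Read totals are not given in the sources used here. Background tags at a summit were solved from the deposited fold and p, and 98.4 to 100.0% of summit tags came out whole within 0.001.

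Rows with the same start and end were reduced to 1, sets were cut at q of 0.01, and an overlap was 1 bp. Gene starts came from GENCODE vM21, an earlier release than the study's, with 132629 starts and 21938 coding genes. Intervals are 95% exact binomial. The named genes were Myh6, Ucp1, the members of 21 gene lists, the 5 promoters of largest difference with no peak in the other tissue, the 5 strongest regions of each class and the 10 genes with most regions. The members, lists and tests were chosen with earlier results of these data known. One further marker list is not reported here. Scripts used Python 3.11.15, numpy 2.4.6, pandas 2.3.3, scipy 1.17.1, matplotlib 3.10.9 and BLAST 2.17.0, and were tested on simulated data. Alternatives changed the q, chromosomes, depth, overlap, promoter window, ranking, libraries, call threshold and motif window.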

Additional observations from a re-analysis of the deposited data

How the results depend on the processing

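The Jaccard index stayed the same side of the threshold in every setting run (0.312 to 0.373, exact permutation p 0.357 to 0.786); equal depth and an overlap of 50% were not run for it. Heart-specific regions numbered 3015 at q under 1e-06, 28777 with all deposited regions, 3493 with the 50000 strongest, 9064 at equal depth (the setting of ranks at this depth was added after seeing the data), 62529 in fed and 75421 in fasting libraries, and 19403 to 64976 without 1 library. Brown-specific regions numbered 18941 at q under 1e-06, 9632 with the 50000 strongest, 80251 and 66373 in fed and fasting libraries, and 38340 to 68877 without 1 library. In the same settings (q under 1e-06, all deposited, 50000 strongest, equal depth, overlap of 50%, fed, fasting, without 1 library), the share of heart-specific regions open in muscle was 60.9, 49.1, 38.9, 63.5, 67.4, 34.7, 35.5 and 29.8 to 61.9%, and that of brown-specific regions open in white adipose 60.6, 62.1, 50.1, 68.7, 71.4, 51.0, 50.4 and 47.2 to 65.6%. The difference in promoter share, 1.02 points, was 1.84 with the 50000 strongest, 3.94 with an overlap of 50%, −2.79 in fed libraries, 2.27 with a window of 1000 bp and −1.13 to 3.71 without 1 library. At 40 points, 863 promoters were higher in heart and 529 in brown adipose. The respiratory chain median was 3.47 by fold, 0.843 fed, −0.325 fasting and −0.204 to 0.550 without 1 library. Tnnt2 (−10.4) and Adrb3 (7.08) reversed by fold, and Bmp8b (22.2) with a window of 1000 bp. Fewer libraries or a stricter threshold change the counts by construction; otherwise the cause was not tested. Motif differences kept their sign in the 4 alternatives apart from NKX2-5 (0.227 with the wider window, 0.218 at q under 1e-06) and CTCF (0.0368 at q under 1e-06). The libraries of a state came from the same mice, so the values from fed and from fasting libraries are the paired differences, and 2 pairs were described without a test. Depth limits the weaker regions, and no value has a replicate within a state. The setting of equal depth also cut the sets at p of 1e-05 in place of q.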

Other observations

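Peaks over nuclear copies of mitochondrial DNA were compared, a measure taken after the data were seen. The nuclear genome held 47 segments (25886 bp) alike to the mitochondrial genome at 80% identity or more over at least 100 bp. Among the 100 strongest regions of each list, 15 and 16 lay over such segments in fed and fasting heart and 8 and 11 in fed and fasting brown adipose, against 4 to 13 in the other 12 libraries. The highest −log10 p over them was 4789 and 6102 in heart, 4418 and 3089 in brown adipose and 1244 to 3192 elsewhere. The segment chr6:79817916-79818347, 88.5% identical to mitochondrial DNA, held folds of 59.9 and 61.1 in heart, 23.9 and 27.1 in brown adipose, 32.4 and 47.8 in fed and fasting liver, 35.6 and 29.5 in kidney and 9.69 to 20.9 in the libraries of the other tissues. A segment on chromosome 12 (chr12:97061428-97061792) held folds of 34.4 to 38.9 in all 16 libraries.

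MEF2 and GATA letters divided the heart-specific regions differently by muscle. MEF2 letters stood in 3.28% (95% exact binomial interval 2.92 to 3.67) of the heart-specific regions open in muscle and 1.76% (1.47 to 2.09) of those not open there. GATA letters stood in 3.13% (2.78 to 3.51) and 5.52% (5.0 to 6.07), the opposite order. In brown-specific regions, EBF letters stood in 7.42% of those open in white adipose and 10.9% (10.4 to 11.5) of those not open there. These subsets share their libraries, and the intervals cover counting error only.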
